A study of Mus musculus with 17 samples.

Results

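The piRNA pathway protects the male germ line from transposons and shapes gene expression in meiotic and postmeiotic cells. PIWI proteins carry small RNAs, the piRNAs, which are cut from long precursors at the outer membrane of mitochondria, trimmed, methylated and then used to recognise target RNAs. Many of these proteins carry Tudor domains, which bind methylated arginines of PIWI proteins, and assemble with RNA helicases in germ granules such as the intermitochondrial cement and the chromatoid body. In pachytene spermatocytes the pathway is dominated by pachytene piRNAs, whose precursors are transcribed under the factor A-MYB. H3.3, a histone variant laid down outside DNA replication, is found at active promoters and also accumulates on the silenced X and Y chromosomes of male meiosis.

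To examine whether H3.3 was listed at the promoters of this pathway, 32 autosomal piRNA pathway and germ granule genes were looked up in the H3.3 peak lists of mouse pachytene spermatocytes. The genes were chosen by name and function, with earlier results of these data known, out of 20807 autosomal protein-coding genes. A gene was counted where any base of an H3.3 region lay within 1 kb of the start of any of its annotated transcripts. The assay was CUT&RUN, which tethers a nuclease to antibody-bound chromatin and sequences the DNA that it cuts free. Of the 17 libraries of the series, 5 used an antibody to H3.3 (Arid1a WT, n = 2, and Arid1a cKO, n = 3), and the 12 that used ARID1A antibodies were not analysed here. ARID1A is a putative DNA-binding subunit of the BAF chromatin remodeler. Arid1a WT animals carried floxed Arid1a alleles, as Arid1a fl/fl or Arid1a fl/+, without Cre. Arid1a cKO animals were Arid1a fl/fl; Stra8-Cre Tg/0, in which the Stra8 promoter drives Cre in spermatogonia. Both genotypes were adult males. The floxed Arid1a mice were on a CD1 background, and the paper gives none for the Stra8-Cre mice. The testes of several animals were pooled before pachytene cells were enriched by sedimentation (Sta-Put). Excision by Stra8-Cre was incomplete, so the Arid1a cKO fraction also held spermatocytes that still expressed ARID1A. The lists hold positions and no RNA, so the identity of the cells could not be checked against marker genes.

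Each genotype was represented by 1 list, in which the peaks of its replicates had already been combined. There was therefore no replicate error and no way to test the genotype, and the read depth is unknown. The Arid1a WT list held 228 regions, of which 4 were autosomal. The Arid1a cKO list held 6552 regions after overlapping rows were joined, of which 6179 were autosomal. The fold of a region is the authors' ratio of H3.3 signal to an IgG control on a linear scale, and its -log10 p and -log10 q give the strength of the peak call against that control. Each peak carries 1 set of these values, which may therefore stand for 1 replicate and not for all of them.

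Of the 32 genes, 16 had a region at a start in Arid1a cKO, a share of 50% (95% Wilson interval 33.6 to 66.4%, counting error only). Among all autosomal protein-coding genes, 6145 of 20807 had one (29.5%). The 16 genes with a region were the PIWI gene Piwil1, the biogenesis genes Pld6, Exd1 and Pnldc1, the Tudor genes Tdrd3, Tdrd5, Tdrd7, Tdrkh, Rnf17 and Stk31, the mitochondrial gene Gpat2, the regulators Mybl1 and Tex15, and the germ cell genes Ddx4, Dazl and Kif17. In Arid1a WT, 0 of the 32 genes and 0 of all 20807 autosomal protein-coding genes (0%) had a region at a start. With 4 autosomal regions in the Arid1a WT list, hardly any autosomal gene could have been listed there, and genotype and depth cannot be told apart. From average signal, the authors reported H3.3 above IgG at starts of autosomal genes regulated by ARID1A, which appeared higher in Arid1a cKO. A gene without a region in the Arid1a WT list is therefore not shown to lack H3.3.

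The promoter sequences of the 5 genes with the highest fold in Arid1a cKO are shown first, because the listed promoters differed from many unlisted ones in their CpG content. They are the bases just before the outermost annotated start near the main start of the gene (for Tex15, before the start beside its region), 5′ to 3′ on the strand of the gene, from the RefSeq sequence of GRCm38 (mm10). Every CpG is in capitals. The stretch of Exd1 is shorter, since an exon of the divergent gene Chp1 begins there.
Mybl1, chr1:9700210-9700359 (- strand, 22 CpGs): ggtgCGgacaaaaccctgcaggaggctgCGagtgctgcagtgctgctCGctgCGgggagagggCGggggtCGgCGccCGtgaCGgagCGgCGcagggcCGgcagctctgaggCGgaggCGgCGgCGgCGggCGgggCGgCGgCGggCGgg
Tex15, chr8:33517174-33517323 (+ strand, 18 CpGs): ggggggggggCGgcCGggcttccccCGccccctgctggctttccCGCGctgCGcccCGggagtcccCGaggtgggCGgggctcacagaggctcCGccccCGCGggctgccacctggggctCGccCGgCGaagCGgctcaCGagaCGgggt
Pld6, chr11:59787646-59787795 (- strand, 11 CpGs): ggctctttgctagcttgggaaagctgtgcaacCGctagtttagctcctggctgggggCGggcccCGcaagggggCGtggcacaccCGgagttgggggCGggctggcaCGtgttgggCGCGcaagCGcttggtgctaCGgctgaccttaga
Tdrkh, chr3:94413123-94413272 (+ strand, 16 CpGs): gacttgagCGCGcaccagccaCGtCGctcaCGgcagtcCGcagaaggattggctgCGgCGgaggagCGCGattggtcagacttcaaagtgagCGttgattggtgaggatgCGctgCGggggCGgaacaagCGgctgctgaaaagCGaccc
Exd1, chr2:119547628-119547696 (- strand, 8 CpGs): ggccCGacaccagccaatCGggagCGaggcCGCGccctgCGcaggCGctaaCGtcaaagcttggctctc

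The stretches of Mybl1 and Exd1 lay wholly inside their H3.3 regions, and those of Tex15, Pld6 and Tdrkh in part. Mybl1 had the most CpGs of the 5, many of them in a run of short repeats close to the start. For comparison, the same stretch is given for 5 genes without a region, chosen after their values were seen to span the range of CpG content. Fkbp6 and Tdrd6 held nearly as many CpGs as Tdrkh, Piwil2 and Piwil4 held few, and Nanos2 held none.
Fkbp6, chr5:135350045-135350194 (- strand, 15 CpGs): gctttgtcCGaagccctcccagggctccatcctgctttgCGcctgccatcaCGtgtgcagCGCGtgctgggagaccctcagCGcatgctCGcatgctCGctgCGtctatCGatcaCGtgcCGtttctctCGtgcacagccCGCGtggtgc
Tdrd6, chr17:43630300-43630449 (- strand, 13 CpGs): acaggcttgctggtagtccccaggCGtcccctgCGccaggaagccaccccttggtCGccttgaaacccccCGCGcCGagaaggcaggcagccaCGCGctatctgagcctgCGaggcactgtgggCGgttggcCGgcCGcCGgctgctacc
Piwil2, chr14:70429384-70429533 (- strand, 4 CpGs): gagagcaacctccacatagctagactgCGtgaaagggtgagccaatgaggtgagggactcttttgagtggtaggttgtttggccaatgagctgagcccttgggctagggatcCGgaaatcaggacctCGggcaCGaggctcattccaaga
Piwil4, chr9:14740734-14740883 (- strand, 5 CpGs): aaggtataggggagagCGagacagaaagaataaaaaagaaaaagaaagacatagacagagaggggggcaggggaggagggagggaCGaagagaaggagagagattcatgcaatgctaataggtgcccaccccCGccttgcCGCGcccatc
Nanos2, chr7:18987250-18987399 (+ strand, 0 CpGs): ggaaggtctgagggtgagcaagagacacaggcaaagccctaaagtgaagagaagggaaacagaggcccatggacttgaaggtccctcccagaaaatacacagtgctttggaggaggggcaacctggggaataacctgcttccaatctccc

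Among the PIWI genes, 1 of 3 had a region in Arid1a cKO. Piwil1 (MIWI), which carries pachytene piRNAs, had a region of 206 bp at chr5:128736097-128736302, the narrowest of the 16. Its fold was 3.69, with -log10 p and q of 6.90 and 3.61, and its centre lay 25 bp downstream of the start. The transcript 4930553I04Rik also starts near this region, and the list cannot assign the region to either. Piwil2 (MILI), which acts in fetal and adult germ cells, had no region closer than 13.6 kb, and that one lay at the start of Polr3d. Piwil4 (MIWI2), the nuclear PIWI protein of fetal prospermatogonia, was 30.1 kb from the nearest region. The fold of Piwil1 was below the median of all listed genes, 4.11.

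Of the 7 genes for piRNA biogenesis enzymes and their partners, 3 had a region. Pld6, the mitochondrial nuclease thought to form piRNA 5′ ends, had a region of 445 bp at chr11:59787216-59787660 with a fold of 4.86 and -log10 p and q of 7.48 and 4.15. It reached from -18 to 426 bp around the start. Exd1, a partner of TDRD12, had a region of 383 bp at chr2:119547532-119547914 with a fold of 4.19 and -log10 p and q of 6.32 and 3.17. The centre of this region lay at -96 bp from the start of Exd1 but 2 bp from the start of Chp1 on the other strand, so it is shared by a divergent pair. Pnldc1, the trimmer of piRNA 3′ ends, had a region of 295 bp at chr17:12909680-12909974, with a fold of 2.91 and -log10 p and q of 5.26 and 2.11. That pair of values was among the weakest of the list. The same fold was given to 565 of 6540 peaks (8.64%), and 310 peaks had a lower one. The other members of the group had no region. The helicase Mov10l1, which starts precursor processing, was 52.2 kb from the nearest one, the helicase Tdrd9 4.41 kb, the helicase-like Tdrd12 17.6 kb and the piRNA methyltransferase Henmt1 28.1 kb. Each of those nearest regions lay at another gene, in this order Trabd, Atp5mpl, Nudt19 and Prpf38b.

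Of the 8 genes grouped here as Tudor proteins, 6 had a region, against 29.5% of all genes, with folds from 3.41 to 4.65. Tdrd9 and Tdrd12, which also carry Tudor domains and are counted above with the helicases, had none. Tdrkh, which recruits PIWI proteins to mitochondria for trimming, had the highest fold of the group, 4.65, in a region of 312 bp at chr3:94413172-94413483 centred 9 bp from the start, with -log10 p and q of 7.03 and 3.78. The noncoding transcripts 1700040D17Rik and Gm42463 start near the same region. Tdrd7, a chromatoid body protein, had a wider region of 678 bp at chr4:45972078-45972755 with a fold of 3.99 and -log10 p and q of 7.64 and 4.22. Stk31, a Tudor protein with a kinase-like domain, had a region of 486 bp at chr6:49395461-49395946 with a fold of 3.91 and -log10 p and q of 6.71 and 3.42. Tdrd3, a Tudor protein that also acts in somatic cells, had a region of 737 bp at chr14:87415898-87416634 with a fold of 3.78 and -log10 p and q of 7.19 and 3.82. This region ended 5 bp before the start and did not enter the gene.

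Rnf17, which limits piRNA amplification in meiotic cells, had a region of 236 bp at chr14:56402694-56402929, with a fold of 3.54 and -log10 p and q of 6.63 and 3.31. Its centre lay 111 bp downstream of the nearest annotated start. Tdrd5, which binds precursors of pachytene piRNAs, had a region of 227 bp at chr1:156303445-156303671 with a fold of 3.41 and -log10 p and q of 6.17 and 2.97. It was the only 1 of the 16 written in a single row of the list, whereas the other 15 (93.8%) were written in 2, against 91.5% of all listed genes with 2 or more. The antisense transcript 4930518J20Rik starts beside it. Tdrd1, a component of the intermitochondrial cement, and Tdrd6, a scaffold of the chromatoid body, had no region. The nearest one was 3.71 kb from Tdrd1, at Ccdc186, and 744 kb from Tdrd6, the largest such distance of the 16 unlisted genes.

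Of the mitochondrial and PIWI partner proteins, 1 of 4 was listed. Gpat2, a mitochondrial acyltransferase family protein that binds MILI, had a region of 332 bp at chr2:127425105-127425436 whose fold of 2.91 and -log10 p and q of 5.26 and 2.11 were the same as those of Pnldc1. Asz1, a mitochondrial scaffold of the cement, lay 234 kb from the nearest region. Gtsf1, which assists PIWI slicing, lay 123 kb away. The co-chaperone Fkbp6 lay 19.8 kb from a region at Nsun5.

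The peaks with the highest fold among the 32 genes lay at a transcription factor and a silencing factor. Mybl1 (A-MYB), the master regulator of pachytene piRNA transcription, had a region of 1189 bp at chr1:9699803-9700991 with a fold of 5.57, the highest of the 16, and -log10 p and q of 11.4 and 7.69. It extended from -782 to 406 bp around the start, and 84.6% of all listed genes had a lower or equal fold. Btbd18, which promotes elongation at pachytene piRNA genes, had no region within 18.8 kb. Tex15, which acts with MIWI2 in transposon methylation, had a region of 350 bp at chr8:33516938-33517287 with a fold of 4.90 and -log10 p and q of 9.70 and 6.08. The region lay between annotated starts of Tex15, inside the first transcript and ending 37 bp before a later start (chr8 position 33517324), and was 53.3 kb from the start of the transcript taken to represent the gene. Spocd1, of the same nuclear pathway, lay 37.0 kb from the nearest region, at Adgrb2.

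Of the remaining germ cell genes for RNA helicases, RNA-binding proteins and transport, 3 of 6 were listed. Dazl, a translational regulator of germ cells, had the widest region of the 16, 1290 bp at chr17:50292476-50293765, with a fold of 4.02 and -log10 p and q of 6.34 and 3.17. This region covered 3 annotated starts. Its centre lay at -228 bp from the nearest of them, but 516 bp downstream of the representative start. Ddx4 (MVH), the helicase that marks germ granules, had a region of 314 bp at chr13:112652136-112652449 centred 9 bp from the start, with a fold of 3.46 and -log10 p and q of 6.45 and 3.16. Kif17, a kinesin that associates with the chromatoid body, was counted through a region of 590 bp at chr4:138250157-138250746, with a fold of 3.38 and -log10 p and q of 6.08 and 2.95. That region lay at the start of Sh2d5, where 1 annotated transcript of Kif17 also begins, and the main start of Kif17 was 11486 bp away. Ddx25 (GRTH), which exports germ cell mRNAs, was 11.3 kb from the nearest region. Nanos2, a factor of spermatogonial stem cells, was 4.38 kb away and Nanos3, which acts in primordial germ cells, 85.1 kb. None of the 16 unlisted genes had a region anywhere between its first and last annotated base.

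**Figure D1:**
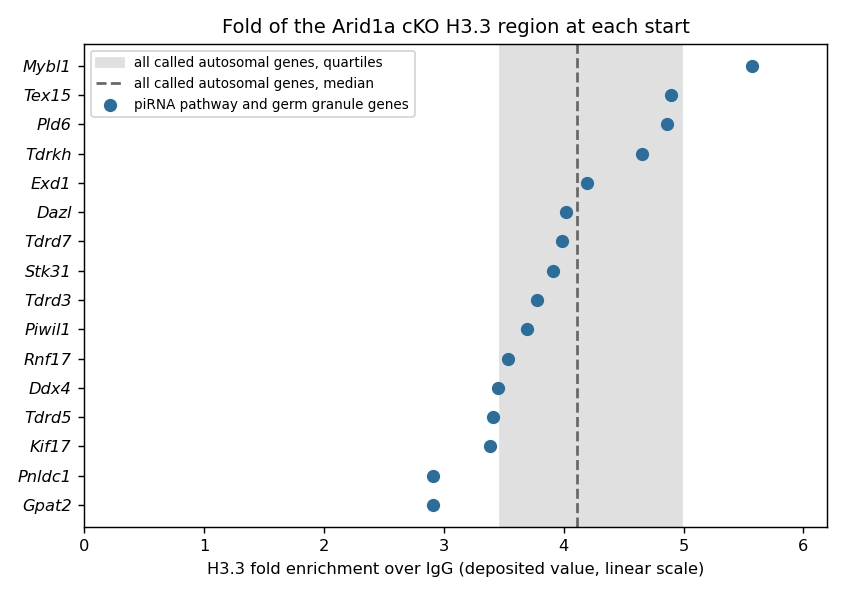
H3.3 fold enrichment over IgG (linear scale, 1 deposited value per region, no error available) of the Arid1a cKO region at each of the 16 listed genes, with the median and quartiles of all listed autosomal genes. Mybl1, Tex15, Pld6, Tdrkh and Exd1 lie above the median of 4.11, and Gpat2 and Pnldc1 have the lowest value.

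The values of the 16 regions lay, at the median, below those of listed genes in general. Their median fold was 3.84, against 4.11 for all 6145 listed genes (quartiles 3.46 and 4.99), and 5 of 16 lay above that median. Their median -log10 q was 3.37 against 3.90. Their median width was 366.5 bp, from 206 to 1290 bp, against 449 bp. These are descriptions of 1 list, and the differences were not tested.

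The share of the pathway was read at several peak strengths. With a -log10 q of at least 3, 12 of 32 genes (37.5%) had a region, against 20.8% of all genes, and Gpat2, Kif17, Pnldc1 and Tdrd5 were lost. At 4, Mybl1, Pld6, Tdrd7 and Tex15 were left, 12.5% against 14.4%. At 5, Mybl1 and Tex15 were left, 6.25% against 9.56%, and at 6 the same 2 genes, 6.25% against 6.57%. From a threshold of 4 the share was thus near the background and rested on 4 genes or fewer. For comparison, a list of 32 meiotic axis, synapsis and crossover genes was counted. Of its members, 15 (46.9%) had a region, and 11 (34.4%) had one at the threshold of 5, with a median fold of 4.85, and the difference between the lists was not tested. High folds in that list included those of Sycp2 (6.56), a component of the chromosome axis, and of the recombination genes Msh5 (6.004) and Spo11 (5.87). Hormad1 and Hormad2, also of the axis, had no region. Of 32 spermiogenesis genes, 7 (21.9%) had a region and 3 (9.38%) had one at 5, with the highest folds at Catsper2 (8.44) and Odf2 (6.59).

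**Figure D2:**
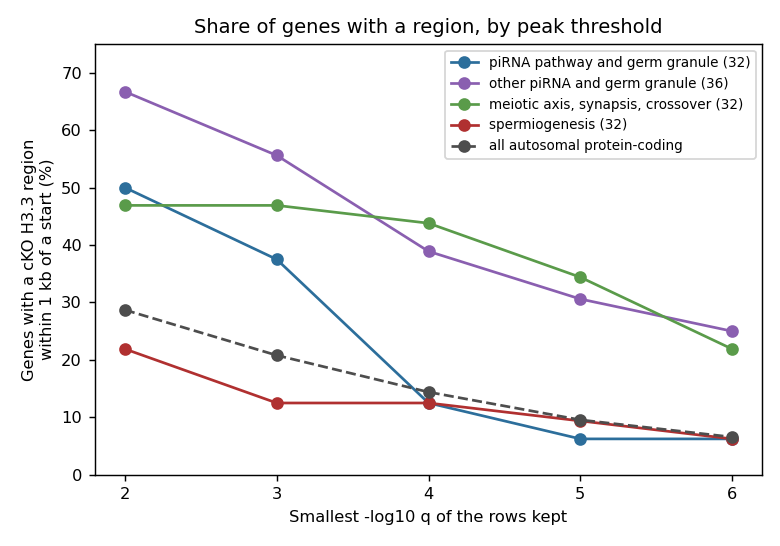
Share of genes with an Arid1a cKO H3.3 region within 1 kb of a start (percent) against the smallest -log10 q kept, for the 32 piRNA pathway and germ granule genes, 3 other gene lists and all 20807 autosomal protein-coding genes. The piRNA pathway and germ granule genes fall from 50% at 2 to 6.25% at 6, near the 6.57% of all genes, whereas the other piRNA and germ granule genes are at 25% and the meiotic genes at 21.9% there.

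Further genes of the pathway were taken from a list of general RNA-binding proteins, chaperones and cofactors that work with piRNAs or sit in germ granules. Of 36 that were matched, 25 (69.4%, 53.1 to 82.0%) had a region in Arid1a cKO, against 29.5% of all genes, and 11 (30.6%) had one at the threshold of 5, against 9.56%. Their median fold was 4.17. The highest values belonged to Tcfl5 (6.68), a transcription factor of pachytene spermatocytes, Cnot7 (6.23), a deadenylase subunit, Elavl1 (6.15), an RNA-binding protein of most tissues, and Ythdc2 (5.83), an RNA helicase needed for meiotic entry. The region counted for Ythdc2 was centred 921 bp downstream of its start. Among the 11 without a region were Ago2, a small RNA slicer, the germ cell RNA-binding gene Dnd1, and Dnmt3c and Dnmt3l, which serve transposon methylation in fetal germ cells.

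Most regions lay across the nearest annotated start of their gene. Of the 16, 14 (87.5%) covered the start nearest to them, against 77.3% of all listed genes. The exceptions Tdrd3 and Tex15 had theirs just upstream of the nearest start (12.5%, against 9.23%), although that of Tex15 lay downstream of an earlier one. Wholly downstream of the nearest start lay 0, against 13.5%. The median centre was 20.5 bp downstream of the nearest start, against 40 bp. Where only the representative start counted, 14 genes were listed and the region spanned that start in 11. The regions of Pnldc1 and Rnf17 lay wholly downstream of it, at gaps of 256 and 113 bp. The region was shared with the start of another protein-coding gene for Exd1 and Kif17 (12.5%), against 26.5% of all listed genes.

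**Figure D3:**
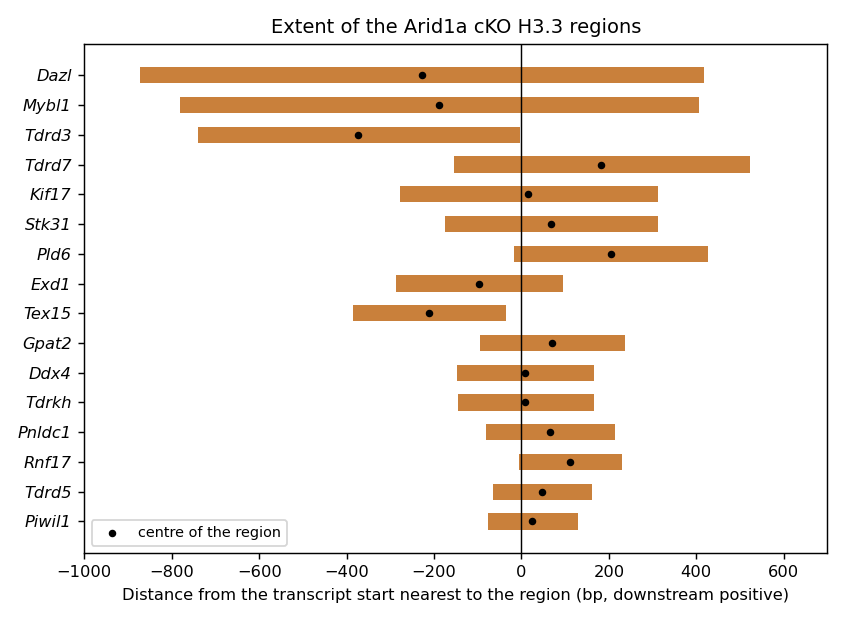
Extent of each Arid1a cKO H3.3 region in bp from the nearest transcript start of its gene (0, downstream positive), sorted by width, with the centre as a point. All but the regions of Tdrd3 and Tex15 cross the start, and those of Dazl and Mybl1 reach farthest upstream of it. For Dazl that start lies inside the gene, and the centre of its region was 516 bp downstream of its representative start.

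Listed promoters of the pathway had a higher CpG content at the median than unlisted ones, but a lower one than listed promoters in general. Promoters were classed in the 500 bp on either side of the representative start, as high (CpG observed over expected of at least 0.75 and GC content of at least 55%), low (under 0.48) or intermediate. Of 8 genes in the high class, 7 had a region (Ddx4, Kif17, Mybl1, Tdrd3, Tdrd5, Tdrd7 and Tdrkh, but not Fkbp6), against 62.9% of all genes of that class. Of 14 in the intermediate class, 7 had one, against 35.4%. Of 10 in the low class, Gpat2 and Tex15 had one, against 4.01%. For Tex15, Kif17, Pnldc1 and Rnf17 the classed start is not the one at the region. Tex15 is low by its representative start, whereas the start beside its region had a ratio of 0.805. Kif17 is high by its representative start, whereas the start at its region, shared with Sh2d5, had a ratio of 0.729, which is intermediate. Pnldc1 and Rnf17 are intermediate by either start, with ratios of 0.517 and 0.545 at the start by their region. When each gene was classed by its CpG-richest start, 9 of 11 high, 6 of 12 intermediate and 1 of 9 low genes had a region, against 61.4%, 31.1% and 0.907% of all genes. The median ratio was 0.733 in the 16 listed and 0.523 in the 16 unlisted genes, against 0.790 and 0.378 in all listed and unlisted genes. CpG content did not separate the genes completely. Tdrd6, Henmt1, Ddx25 and Fkbp6 had ratios of 0.743, 0.726, 0.728 and 0.765 without a region, whereas Piwil1 and Rnf17 had one at 0.505 and 0.516.

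**Figure D4:**
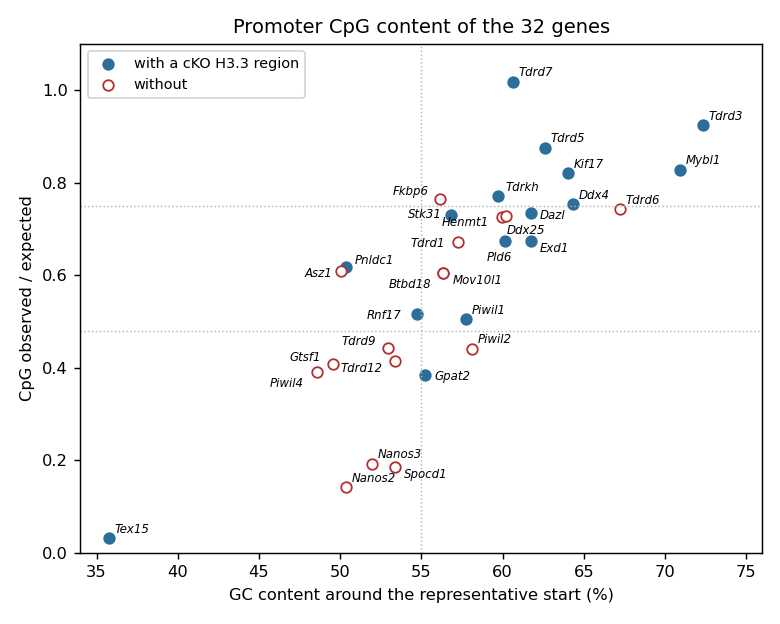
CpG observed over expected against GC content (percent) within 500 bp of the representative start of each of the 32 genes, filled where an Arid1a cKO H3.3 region lies at a start. Dotted lines mark the class limits of 0.75, 0.48 and 55%, and Fkbp6 is the gene of the high class without a region.

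Shares also varied with the number of annotated starts, which gives a gene more chances to be counted. Of 3 genes with 1 start, 1 was listed, against 12.5% of all such genes. Of 11 genes with 2 to 3 starts, 6 were listed, against 20.5%, of 13 with 4 to 5 starts 6, against 35.7%, and of 5 with more starts 3, against 48.4%. Where no other protein-coding start lay within 1 kb, 14 of 28 genes were listed, against 24.9%. With such a neighbour, Exd1 and Kif17 of 4 were listed, against 55.9%. Without one, 6 of 7 genes of the high CpG class were listed, against 58.8%, 6 of 11 of the intermediate class, against 31.7%, and 2 of 10 of the low class, against 2.89%.

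The count of 16 moved little with the rule for a region at a start. It was also 16 with a window of 500 bp (28.9% of all genes), with one of 2 kb (30.1%), where the centre of the region had to lie within 1 kb (29.3%) and with protein-coding transcripts only (29.1%). It was 15 where 2 or more overlapping rows were needed (27.1%), without Tdrd5. It was 14 where only the representative start counted (27.6%), without Kif17 and Tex15, and 14 where the region had to cover a start (22.8%), without Tdrd3 and Tex15. It was again 14 where the nearest protein-coding start to the region had to be that of the gene (25.6%), without Exd1 and Kif17.

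The promoters were searched for 6 motifs, on both strands, from 250 bases before to 50 after the representative start. The E-box CACGTG, the letters bound by several basic helix-loop-helix factors, was found in 8 of 32 genes (25%), against 7.83% of all autosomal protein-coding genes. It was found in 4 of the 16 listed genes (Piwil1, Ddx4, Pld6 and Stk31) and in 4 of the 16 unlisted ones (Mov10l1, Tdrd1, Tdrd9 and Fkbp6). The NRF1 motif GCATGCG was found in 6 genes (18.8%), 3 of them listed, against 4.47%. The box CCAAT, known for binding NF-Y, was found in 15 genes (46.9%), 11 listed and 4 unlisted, against 38.2%. The MYB motif AACTGNC, where N is any base, was found in 6 genes (18.8%), 5 listed (Piwil1, Tdrkh, Pnldc1, Stk31 and Tex15) and 1 unlisted (Fkbp6), against 12.2%. The E2F core TCCCGC was found in 7 genes (21.9%), against 25.9%, and the cyclic AMP response element TGACGTC in Kif17 alone (3.13%), against 4.12%. E-box, NRF1, E2F and TGACGTC motifs contain CpG, and no correction for CpG content was made. For Tex15, Pnldc1, Rnf17 and Kif17 the searched start is not the one at the H3.3 region. Their matches were MYB and CCAAT for Tex15 and Pnldc1, CCAAT for Rnf17, and TGACGTC for Kif17. A match is a description of the letters, and binding was not measured.

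The E-boxes are printed with their flanking bases, 5′ to 3′ on the strand of the gene and with CACGTG in capitals, because they were found in 8 of these genes, as often without a region as with one. Genes with a region come first.
Piwil1, chr5:128736058-128736081 (+ strand): accgccaccCACGTGgcagccaat
Piwil1, chr5:128736083-128736106 (+ strand): agggcccagCACGTGtccacctcg
Ddx4, chr13:112652325-112652348 (- strand): gtccgcccgCACGTGcagccgttt
Pld6, chr11:59787676-59787699 (- strand): gcgggctggCACGTGttgggcgcg
Stk31, chr6:49395475-49395498 (+ strand): ccggccaccCACGTGaccagggct
The genes without a region follow.
Mov10l1, chr15:88982739-88982762 (+ strand): atgctccttCACGTGctaaccgcc
Tdrd1, chr19:56826189-56826212 (+ strand): ggctgcgcgCACGTGggagtaaac
Tdrd9, chr12:111971385-111971408 (+ strand): ctccataaaCACGTGcctgtccag
Tdrd9, chr12:111971455-111971478 (+ strand): cgaggctccCACGTGcatgcaggg
Fkbp6, chr5:135350131-135350154 (- strand): gcctgccatCACGTGtgcagcgcg
Fkbp6, chr5:135350067-135350090 (- strand): tctatcgatCACGTGccgtttctc

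Piwil1, Tdrd9 and Fkbp6 each held 2 E-boxes. The first Piwil1 E-box lay outside the H3.3 region and the second at its upstream edge. The Ddx4 and Stk31 E-boxes lay inside their regions, and that of Pld6 just upstream of it.

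No autosomal region of the Arid1a WT list was near the 32 genes. For the 8 genes on chromosomes with such a region, the nearest was 0.713 Mb from Tdrkh, 15.2 Mb from Henmt1, 15.3 Mb from Ddx25, 32.9 Mb from Tdrd5, 36.1 Mb from Piwil4, 93.2 Mb from Stk31, 125 Mb from Asz1 and 179 Mb from Mybl1. The other 24 genes were on chromosomes without one. The lowest fold in the Arid1a WT list was 4.85. In Arid1a cKO, 3 of the 16 regions of the pathway (Mybl1, Tex15 and Pld6) reached that value. Since the read depth is unknown, folds of the Arid1a WT and Arid1a cKO lists cannot be taken to share a common scale.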

How the data were processed

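The data are H3.3 peak lists from CUT&RUN libraries of purified pachytene spermatocytes, of which 2 belong to Arid1a WT and 3 to Arid1a cKO. The authors trimmed reads (Trim Galore), aligned them to mm10 (Bowtie2) and removed duplicates (Picard). They called broad peaks with MACS2 in each library, taking rabbit IgG data of another study as control, and intersected replicates into 1 list per genotype. That control came from pachytene-enriched cells of juvenile testes, whereas the H3.3 libraries came from adults. Each deposited row gives a fold enrichment (a linear ratio over IgG), a -log10 p-value and a -log10 q-value. Rows cut from a peak all carry the values of that whole peak.

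Rows overlapping by at least 1 bp were joined into regions and assigned to starts of the 141730 transcripts of GENCODE M21 on 21 chromosomes. The highest row of the region nearest a start stands for the gene. The representative start is that of the principal, then longest, transcript. Coordinates are 1-based. No test was run, since each genotype is 1 list. Genes and lists were chosen with earlier results of these data known. All 32 genes are named. From the other lists, genes with the highest fold and the first unlisted ones by alphabet are named. A gene that this rule would name is not reported here. Tdrd15 was not matched. Alternatives covered the window, starts, peak threshold, row support and CpG classes. The assignment was tested on simulated regions. Python 3.11.15, numpy 2.4.6, pandas 2.3.3, scipy 1.17.1 and matplotlib 3.10.9 were used.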

Additional observations from a re-analysis of the deposited data

How the results depend on the processing

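No paired analysis was possible because the replicates of a genotype had been merged into a single list, so that none could be set aside in turn. The 8 results were recomputed under 74 alternatives. Of these, 67 left counts and medians close to their main values, where close includes a fall from 16 to 12 of the 32 genes. Some of the 67 had little or no room to move. The Arid1a WT count stayed at 0 under every rule, in a list with 4 autosomal regions. The mean over rows repeated the fold of the highest row, because rows of a peak share their values. The other 7 moved a value. With a -log10 q of at least 5, which leaves fewer peaks by construction, regions were left at 2 of the 32 genes, at 1989 of all autosomal protein-coding genes and at 11 of the other piRNA and germ granule genes. The share of the 32 genes was then below that of all genes, 6.25% against 9.56%, where the main rule gave 50% against 29.5%. Of the 2 regions, 1 spanned the start, their median fold was 5.23 and their median width 769.5 bp. With a CpG ratio of at least 0.6 as the only limit, 12 of 20 CpG-rich genes had a region, where the high class had 7 of 8.

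The classing by CpG-richest start was added after the data had been seen. Because the depth is unknown, a gene without a region is one whose H3.3 was not detectable at this threshold, and not one shown to lack it.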
